A study of Mus musculus with 2 samples.

Results

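The genes described here encode the 3 beta subunits of the sodium-potassium pump, Atp1b1, Atp1b2 and Atp1b3, and the 4 plasma membrane calcium pumps, Atp2b1, Atp2b2, Atp2b3 and Atp2b4. They were chosen by gene symbol, and all 7 matched 1 row each among the 55536 annotated genes of the gene table, with 42 annotated transcripts between them. The study sequenced total RNA of the adrenal gland from female B6CASTF1/J mice aged 2 months, an F1 hybrid of C57BL/6J and a CAST parent. Each library was made from 300 ng of RNA, depleted of ribosomal RNA and spiked with ERCC control RNA. The labels name no treatment and no altered allele. They give 1 group with 2 biological replicates (animal 1 and animal 2), so no comparison between conditions was possible, and values between the animals are a description without p-values.

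The sodium-potassium pump exports sodium and imports potassium with energy from ATP, and so sets the ion gradients across the plasma membrane. Its catalytic alpha subunit, not analysed here, works only in a complex with a glycosylated beta subunit, which helps it fold, leave the endoplasmic reticulum and reach the membrane. Plasma membrane calcium pumps, known as PMCA, export calcium from the cytosol and are activated when calmodulin binds their C-terminal tail. In the adrenal gland, membrane potential and cytosolic calcium govern aldosterone synthesis in the zona glomerulosa of the cortex and catecholamine release from chromaffin cells of the medulla.

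Each PMCA gene is spliced at a pair of conserved places. At splice site C, near the end of the coding sequence, an insert that shifts the reading frame makes the protein end in a shorter tail, the "a" form. Without the insert the full calmodulin-binding tail with a PDZ-binding end is made, the "b" form. The annotated inserts, read from GENCODE M21 transcripts like all sequences here, are shown because the calcium pump genes differed at this site in these libraries. The Atp2b1 insert is at chr10:99019278-99019431 (mm10, plus strand), the Atp2b3 insert at chrX:73559864-73560017 (plus strand) and the Atp2b4 insert, from transcript Atp2b4-203, at chr1:133711642-133711822 (minus strand). The first and second are 154 bases long and the third is 181.
Atp2b1-210: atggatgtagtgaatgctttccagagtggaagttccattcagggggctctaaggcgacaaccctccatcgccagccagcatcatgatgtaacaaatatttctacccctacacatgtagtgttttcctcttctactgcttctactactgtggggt
Atp2b3-203: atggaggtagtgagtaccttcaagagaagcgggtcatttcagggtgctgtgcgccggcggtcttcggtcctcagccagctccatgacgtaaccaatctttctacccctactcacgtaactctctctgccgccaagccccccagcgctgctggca
Atp2b4-203: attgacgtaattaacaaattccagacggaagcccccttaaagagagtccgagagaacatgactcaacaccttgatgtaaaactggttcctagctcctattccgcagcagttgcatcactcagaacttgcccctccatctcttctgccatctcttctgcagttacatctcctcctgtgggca
The Atp2b1 and Atp2b3 inserts had the same base at 98 of 154 positions, which is 63.6%. After the insert the coding sequence goes on into the next exon and stops there. That stretch is 26 bases in all 3 genes, with the stop codon in capitals, at chr10:99022808-99022833 for Atp2b1, chrX:73570234-73570259 for Atp2b3 and chr1:133706971-133706996 for Atp2b4.
Atp2b1-210: atccgagtggtgaatgcatttcgTAG
Atp2b3-203: atccgggtggtgaaagcattccgTAG
Atp2b4-203: atcagagtcgtcaaactgttccaTAA
Atp2b1 and Atp2b3 had the same base at 23 of these 26 positions, Atp2b1 and Atp2b4 at 16, and Atp2b3 and Atp2b4 at 17.

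Splice site A lies in the loop between transmembrane segments that holds a phospholipid-binding region, and its exons keep the reading frame. They are shown because Atp2b2 was the gene whose full-length annotated transcripts differed there. Atp2b2-202 holds 3 such exons in a row, of 33, 60 and 42 bases, at chr6:113803747-113803779, chr6:113802486-113802545 and chr6:113797110-113797151 (minus strand).
Atp2b2-202 exon of 33 bases: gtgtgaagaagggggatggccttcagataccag
Atp2b2-202 exon of 60 bases: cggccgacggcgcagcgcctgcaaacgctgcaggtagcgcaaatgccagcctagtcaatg
Atp2b2-202 exon of 42 bases: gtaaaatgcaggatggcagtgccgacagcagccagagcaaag
Atp2b3-201: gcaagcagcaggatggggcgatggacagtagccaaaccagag
The last is the single site A exon of Atp2b3, at chrX:73533885-73533926 (plus strand). It has 42 bases as well, and 27 of them matched the third Atp2b2 exon.

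Over annotated genes the expected counts summed to 34203629 in animal 1 and 35959444 in animal 2, so the upper limit for a gene with 0 counts was 3, or 0.0877 CPM (counts scaled to a fixed library sum) in animal 1 and 0.0834 in animal 2. Markers of the labelled tissue were present, with 6 of 6 steroidogenic cortex markers and 8 of 8 chromaffin markers at 1 TPM or more in both libraries. TPM is abundance per effective length, scaled to a fixed sum over all rows. Nuclear protein-coding genes held 31.7% of that sum in animal 1 and 35.6% in animal 2. A TPM difference between the animals for such genes also carries this difference. The libraries also differed in markers of adjoining tissue. The summed TPM of 6 brown fat markers was 653 in animal 1 and 1270 in animal 2, and that of 7 kidney tubule markers was 20.5 and 0.5. Reads were assigned in 2 ways by the authors. The first quantification gives the gene table and is used unless the second is named. In whole tissue, fewer cells of a type and less RNA per cell cannot be told apart.

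All 7 genes were detected at 1 TPM or more in both libraries. By mean TPM the order was Atp1b3, Atp1b1, Atp2b1, Atp2b3, Atp1b2, Atp2b4 and Atp2b2. Atp2b3 and Atp1b2 were the only neighbours in that order whose libraries overlapped, and they traded places in the second quantification, while the other 5 genes kept theirs. The 3 beta subunit genes together reached 87.8 TPM in animal 1 and 95.5 in animal 2, and the 4 calcium pump genes 39.4 and 37.7. The beta subunit sum was thus 2.23 times the calcium pump sum in animal 1 and 2.53 times in animal 2.

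**Figure D1:**
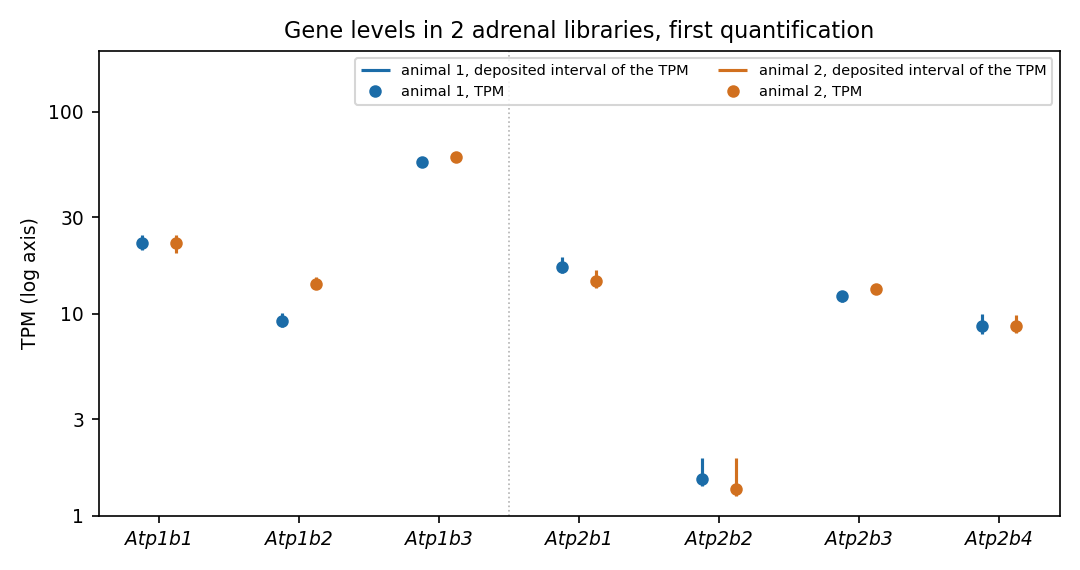
TPM of each gene on a log axis in animal 1 and animal 2, with vertical lines for the deposited TPM interval, whose level is not given. Atp1b3 sits highest, at 56.4 and 59.3, Atp2b2 lowest, at 1.52 and 1.35, and both Atp2b3 points lie between those of Atp1b2, at 9.16 and 13.95.

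Of the beta subunits, Atp1b3 was the most abundant. Encoded at chr9:96332655-96364442 (minus strand), it had 56.4 TPM in animal 1 and 59.3 in animal 2, a mean of 57.8 ± 2.05 (SD, n = 2), which was above 95.2% of nuclear protein-coding genes. Atp1b3 held 64.2% of the beta subunit TPM in animal 1 and 62.1% in animal 2. The counts were 3703 and 3618. Scaled for library size by the trimmed mean of M-values (TMM), Atp1b3 was 1.03-fold higher in animal 1. Its 95% counting interval of 0.988 to 1.08 includes 1. The spike-in totals and the TPM put Atp1b3 higher in animal 2. They also put the median over all genes higher there, at 0.19 and 0.11 on the log2 scale. The counting intervals and the floor cover counting error only, not the spread between animals. They take counts as independent, which PCR copies are not. Nearly all Atp1b3 signal fell on 1 transcript, Atp1b3-201 with 278 codons, at 99.0% and 97.2% of the gene's TPM.

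Atp1b1, the beta subunit best known from kidney, heart and other epithelia and muscle, was next. Its gene is at chr1:164437109-164458355 (minus strand). Atp1b1 had 22.29 TPM in animal 1 and 22.27 in animal 2, a mean of 22.3 ± 0.014 (SD, n = 2). Its counts were 1770 in animal 1 and 1270 in animal 2, which is 50.7 and 36.0 CPM after scaling. The TPM was thus equal to the first decimal in both libraries, and the scaled counts were 1.41-fold higher in animal 1, with an interval of 1.31 to 1.52. The second quantification gave counts of 1962 and 1420 and levels of 50.8 and 41.3 TPM, so there animal 1 was the higher one on both scales.

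The deposited effective length of Atp1b1, an average over its transcripts by which counts are divided to give TPM, was 2271 bases in animal 1 and 1726 in animal 2. The transcript table showed which transcripts it averaged. The full-length Atp1b1-201, with 304 codons, held 89.2% of the gene's TPM in animal 1 and 61.3% in animal 2. The short partial Atp1b1-203, a model of 628 bases with an incomplete coding sequence and a start inside the gene, held 9.56% and 37.3%. In counts the values were 39.3 and 145 for Atp1b1-203, and 1726 and 1120 for Atp1b1-201. The second quantification gave the partial transcript 34.2% and 51.1%. The level of Atp1b1-201 alone was 19.9 TPM in animal 1 and 13.7 in animal 2, so the equal gene TPM joined a lower full-length level in animal 2 to a higher level of the partial model, 2.13 against 8.3 TPM. In the first quantification Atp1b1 was the only member whose leading share differed by more than 20 percentage points between the animals, a limit set after the values were seen. Over 10578 protein-coding genes with several transcripts and a mean of at least 100 counts, 12.3% did so. In the second quantification Atp1b1-201 held 64.2% and 46.3%, which is 17.9 points apart, so 0 of the 7 genes passed that limit there, against 16.1% of genes.

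The following measured values stand beside the Atp1b1 difference. Of the 7 kidney tubule markers, 0 reached 1 TPM in both libraries, and 6 could be compared at 10 or more mean counts, with all 6 higher in animal 1. Kap, Umod, Slc34a1 and Slc12a1 were at 0 counts in animal 2, and Kap had 350 counts in animal 1. Kidney markers were not alone in this direction. Also higher in animal 1 were 8 of 8 chromaffin, 5 of 5 neuron and 5 of 6 Schwann and sustentacular cell markers. For the X zone of the cortex it was 2 of 3, and for the zona glomerulosa 4 of 7. Higher in animal 2 were 6 of 6 brown fat, 4 of 5 red blood cell and 4 of 6 steroidogenic cortex markers. So were 3 of 4 endothelium markers and 2 of 3 muscle markers compared. Nme7, on the opposite strand, overlaps the end of Atp1b1 by 617 bases and had 247 and 224 counts. The part of Nme7 or of any of these cell types in the Atp1b1 counts was not tested.

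Atp1b2, first described as an adhesion molecule on glia, was the least abundant beta subunit. From its locus at chr11:69599736-69605942 (minus strand) it had 9.16 TPM in animal 1 and 13.95 in animal 2, a mean of 11.6 ± 3.39 (SD, n = 2). The deposited intervals, 8.55 to 10.1 and 13.2 to 15.1, did not overlap. Its counts were 868 and 1271, a 1.45-fold higher scaled count in animal 2, with an interval of 1.33 to 1.58. The 7 alternatives tried all put Atp1b2 higher in animal 2, from 0.44 to 0.74 on the log2 scale. The gene's share of the beta subunit TPM was 10.4% in animal 1 and 14.6% in animal 2.

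Atp1b2 and Atp1b1 were thus apart between the animals in opposite directions by scaled counts. In animal 2, 6 of 6 brown fat markers were higher. Of 5 red blood cell markers 4 were higher in animal 2, and their sums were at 1133 TPM in animal 1 and 1994 in animal 2, and those of skeletal and smooth muscle at 16.4 and 21.5. The summed markers of Schwann and sustentacular cells, the glial cells of the gland, were at 6.96 and 6.22. By scaled counts 5 of these 6 glial markers were higher in animal 1, 4 of them past 1.2-fold. The part of any of these cell types in the Atp1b2 value was not tested. The transcript mix of Atp1b2 was alike in both libraries. Atp1b2-201, with 290 codons, held 91.4% and 91.3% of its TPM, against 62.3% and 62.7% in the second quantification, which gave 15.4% in each library to the noncoding Atp1b2-204, and 11.1% and 12.1% to the partial Atp1b2-203.

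**Figure D2:**
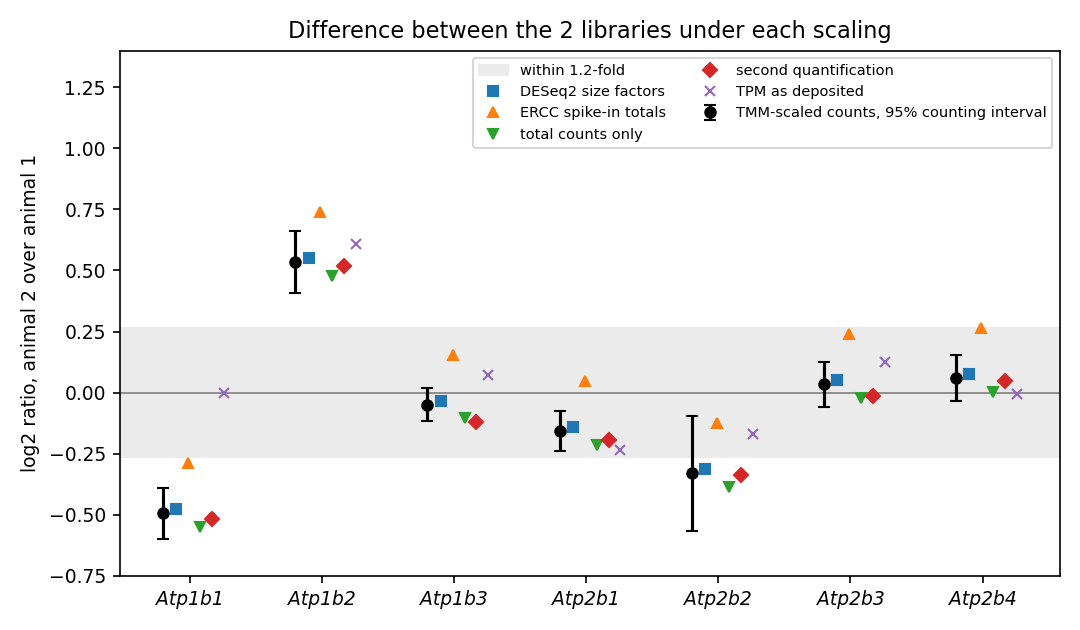
Log2 ratio of animal 2 over animal 1 for each gene, as TMM-scaled counts with 95% counting intervals (black) and under 5 other scalings or tables, with the range within 1.2-fold in grey. Atp1b2 is above the grey band under all of them, and Atp1b1 is below it under all but the TPM, where it is at 0.

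Of the calcium pumps, Atp2b1 was the most abundant. It encodes PMCA1, the widely expressed form. Its gene is at chr10:98914406-99026143 (plus strand). Atp2b1 had 17.0 TPM in animal 1 and 14.4 in animal 2, a mean of 15.7 ± 1.82 (SD, n = 2), and held 43.2% and 38.3% of the calcium pump TPM. Its counts were 2524 and 2289. The scaled count was 1.11-fold higher in animal 1, with an interval of 1.05 to 1.18. Only the spike-in totals put it higher in animal 2, at 0.048 on the log2 scale, against a median of 0.19 over all genes. With TPM over nuclear protein-coding genes, an alternative added after the data were seen, Atp2b1 was past 1.2-fold, at -0.40 on the log2 scale of animal 2 over animal 1.

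Atp2b3 came next. It encodes PMCA3, best known from neurons, and somatic mutations of the human gene occur in aldosterone-producing adenomas of the adrenal cortex. Atp2b3, at chrX:73503086-73571005 (plus strand), had 12.2 TPM in animal 1 and 13.3 in animal 2, a mean of 12.7 ± 0.778 (SD, n = 2). Its counts were 1910 and 1977, and its share of the calcium pump TPM was 30.9% and 35.2%. The scaled counts differed by 1.02-fold, with an interval of 0.961 to 1.09 that includes 1, and the direction turned with the total counts, the second quantification and the TPM over nuclear protein-coding genes.

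Atp2b4 encodes PMCA4, a widely expressed form known for its place in sperm motility. Atp2b4, at chr1:133699457-133801041 (minus strand), had 8.68 TPM in animal 1 and 8.65 in animal 2, a mean of 8.66 ± 0.0212 (SD, n = 2). Its counts were 1805 and 1900, 1.04-fold higher in animal 2 after scaling, with an interval of 0.976 to 1.11 that includes 1, and TPM with either denominator put it higher in animal 1. It held 22.0% and 22.9% of the calcium pump TPM.

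Atp2b2 was the lowest of the 7. It encodes PMCA2, known from neurons, the hair cells of the inner ear and the lactating mammary gland. Its gene is at chr6:113743831-114042613 (minus strand). Atp2b2 had 1.52 TPM in animal 1 and 1.35 in animal 2, a mean of 1.44 ± 0.12 (SD, n = 2), and 3.86% and 3.58% of the calcium pump TPM. Its counts were 337 and 271, 1.26-fold higher in animal 1 after scaling, with an interval of 1.07 to 1.48. With the spike-in totals or the deposited TPM it was within 1.2-fold and still higher in animal 1, and with TPM over nuclear protein-coding genes it was past 1.2-fold, at -0.34. Chromaffin markers were higher in animal 1 for 8 of 8 genes, with summed TPM of 1834 and 1498, and neuron markers for 5 of 5, with sums of 19.7 and 14.8. Also higher in animal 1 were 6 of 6 kidney tubule markers compared and 5 of 6 Schwann and sustentacular cell markers. For the X zone it was 2 of 3, and for the zona glomerulosa 4 of 7. Markers of brown fat, red blood cells, muscle, endothelium and steroidogenic cortex were mostly higher in animal 2. The part of any of these in the Atp2b2 value was not tested.

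Read together, 2 of the 7 genes, Atp1b1 and Atp2b2, were more than 1.2-fold higher in animal 1 by scaled counts, and 1, Atp1b2, was more than 1.2-fold higher in animal 2. Over the 17308 genes that averaged 10 counts or more, 21.8% were past 1.2-fold with animal 1 higher and 18.4% with animal 2 higher. The counting interval left out 1 for 4 of the 7, against 45% of those genes. Such intervals narrow as counts rise, and the members had 271 counts or more in each library. These interval shares are thus not matched for depth. The median log2 ratio of the 7 genes was -0.05, and -0.02 over all genes. The median absolute log2 ratio was 0.16 for the 7 and 0.21 over all. The shares for the set are near those of all genes. Summed by role, the beta subunit counts were 1.04-fold higher in animal 1 and the calcium pump counts 1.03-fold. The spike-in totals put both higher in animal 2, by 0.15 and 0.16 on the log2 scale. TPM did so for the beta subunits. The median over all genes was itself 0.19 with the spike-in totals and 0.11 with TPM.

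The calcium pump genes differed in how their transcripts ended, a comparison chosen after the values were seen. Of the Atp2b3 TPM in transcripts that reach splice site C, the form with the insert, Atp2b3-203, held 93.8% in animal 1 and 94.4% in animal 2, a mean of 94.1% ± 0.418 (SD, n = 2). It had 1811 and 1878 counts. The form without it, Atp2b3-202, had 0 and 53.1 counts. The remaining annotated end, Atp2b3-201, which leaves the gene before the insert, had 99.1 and 46.0 counts. In the second quantification Atp2b3-203 held 81.8% and 82.6%, and the form without the insert 4.80% and 9.03%. The insert form has 1173 codons and the form without it 1220.

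The other calcium pump genes had mostly transcripts without the insert. Atp2b1-201, with 1220 codons, held 95.4% and 84.9% of the TPM reaching the site in Atp2b1, and the insert models 4.60% and 15.1%. Those models are partial, and in counts they held 0.934% and 3.33%, which is 20.2 and 71.0 counts. Atp2b4 transcripts without the insert held 90.2% and 91.7%, and those with it 9.77% and 8.30%. Atp2b2 transcripts without an insert held 96.5% and 94.3%. The remainder, 3.47% and 5.69%, was Atp2b2-206, with 11.9 and 15.7 counts. This transcript has a 172-base exon at the site and a further exon after it, codes for 1154 codons against 1198 in Atp2b2-201, and is annotated for nonsense-mediated decay. It is counted here under other ends, as it does not go straight from the insert to the last exon, and held 9.09% and 4.77% in the second quantification. No annotated Atp2b2 transcript was thus in the insert class. Its insert share was fixed at 0 by the annotation and this rule, and was not a measurement. The insert share of Atp2b3 was above that of Atp2b1 and Atp2b4 in both libraries and both quantifications. The insert shares pool different inserts. Those of Atp2b1 include Atp2b1-209, whose 87-base insert keeps the reading frame and the full 309 coding bases of the last exon, with 0 counts in both libraries, and 0 and 29.5 counts in the second quantification. Those of Atp2b4 include Atp2b4-201, whose coding sequence ends inside its 191-base insert, after 186 bases of it. Atp2b4-201 had 0 and 53.3 counts, beside 94.8 and 53.8 for Atp2b4-203. These shares come from the authors' division of reads among annotated transcripts, and reads across the splice junctions were not analysed here.

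**Figure D3:**
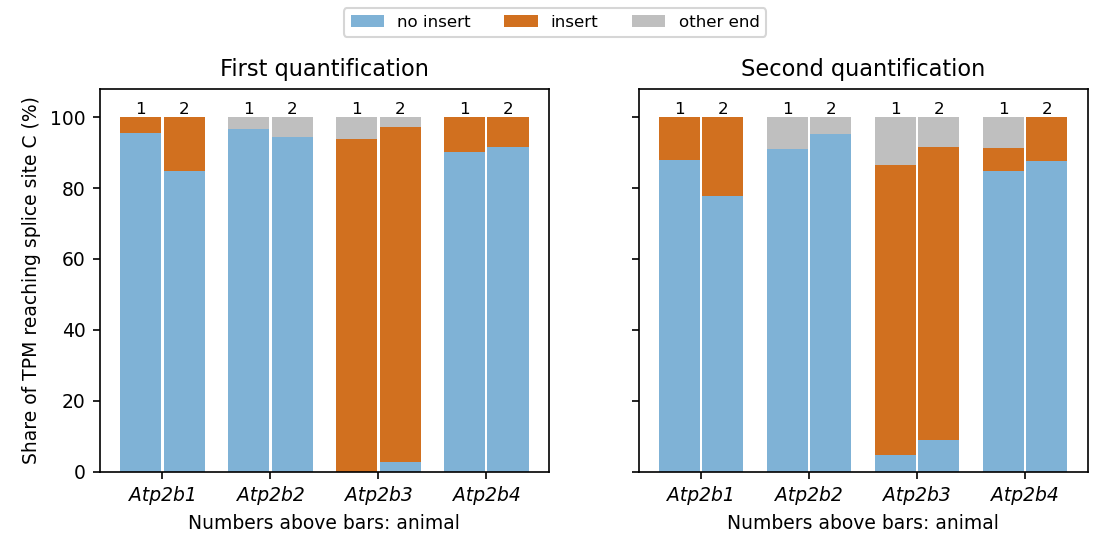
Share of each calcium pump gene's TPM, among transcripts that reach splice site C, without the insert (blue), with it (orange) and with another end (grey, in Atp2b2 the transcript with the 172-base exon), for animal 1 and animal 2 in both quantifications. Atp2b3 is mostly orange, at 93.8% and 94.4% in the first and 81.8% and 82.6% in the second, and the other genes are mostly blue.

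At splice site A, only Atp2b2 had full-length annotated transcripts of several kinds. Partial models were not classified at this site. Atp2b2-202, whose 3 exons add 135 bases or 45 codons, held 31.4% of the gene's TPM in animal 1 and 35.3% in animal 2, from 74.6 and 71.3 counts. Atp2b2-201 and Atp2b2-203, both without site A exons and with 1198 codons, held 39.9% and 33.1%, and 19.6% and 16.9%. In the second quantification Atp2b2-202 held 37.4% and 34.4%. The full-length transcripts of the other 3 genes all carried 1 site A exon, of 39 bases in Atp2b1, 42 in Atp2b3 and 36 in Atp2b4. Skipping could thus not be read from those transcripts.

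The rest of the transcript mix differed between genes. Of the whole Atp2b1 TPM, Atp2b1-201 held 51.2% and 61.6%, though 84.8% and 90.2% of the counts, since the other models are short. The partial Atp2b1-207 held 15.9% and 10.4%. The partial Atp2b1-208 had 172 counts in animal 1 and 0 in animal 2, where the second quantification gave 214 and 57.6. In Atp2b4 the leading Atp2b4-207 held 53.0% and 59.2% of the TPM and 71.3% and 71.2% of the counts. Atp2b4-206, with the same 1205 codons but a start farther upstream, held 10.8% and 12.4% of the TPM, and 380 and 410 counts. The short noncoding Atp2b4-204, 588 bases long, held 27.9% and 22.0% of the Atp2b4 TPM on 2.30% and 1.62% of its counts. Transcripts not annotated as protein-coding held 29.3% and 22.0% of Atp2b4 TPM in all, and a median of 9.16% and 10.9% over protein-coding genes with several transcripts. In the second quantification the gap was smaller, with 15.7% and 18.5% in Atp2b4 against medians of 11.8% and 14.2%.

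**Figure D4:**
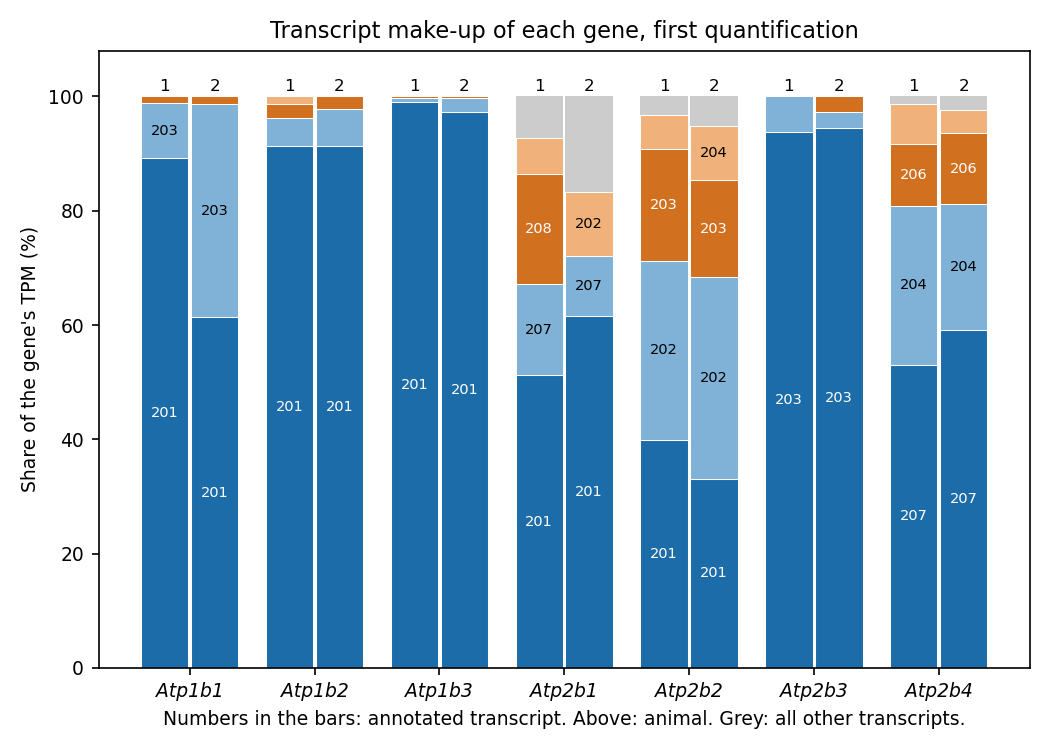
Share of each gene's TPM in its annotated transcripts, animal 1 on the left and animal 2 on the right of each pair, with the 4 leading transcripts coloured and the rest in grey. Atp1b1 shows the shift from transcript 201, 89.2% to 61.3%, to transcript 203, and Atp1b3 and Atp2b3 are nearly 1 transcript each.

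Genes that work beside the pumps were read from fixed lists. Over all genes that averaged 10 counts or more, 21.8% were past 1.2-fold with animal 1 higher and 18.4% with animal 2 higher. FXYD proteins are small membrane proteins that tune the sodium pump, and 4 of 7 were at 1 TPM or more in both libraries, with 1 past 1.2-fold in each direction. Fxyd1, or phospholemman, had 73.7 TPM in animal 1 and 107 in animal 2, 1.33-fold higher in animal 2 by scaled counts with an interval of 1.22 to 1.46. Fxyd6 had 69.1 and 69.8 TPM. Both were above every beta subunit gene in level. Fxyd4 was at 0 counts in both. Of 6 other beta-type subunit genes and Nkain genes, whose products bind the beta subunit, 2 were at 1 TPM, Nkain4 and Nkain1. Nkain4 had 3.48 and 1.74 TPM, 1.74-fold higher in animal 1 with an interval of 1.2 to 2.59, on 78 and 45 counts. Nkain1 had 1.49 and 1.54 TPM, and Atp1b4 was at 0 counts.

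Partners of the calcium pumps include calmodulin, the basigin and neuroplastin subunits that the pumps need to reach the membrane, and PDZ proteins that bind the "b" tail. Of 8 such genes, 7 were at 1 TPM in both libraries, with 0 past 1.2-fold higher in animal 2 and 2 in animal 1. Bsg, basigin, had 184 and 204 TPM, and Calm2, a calmodulin gene, 150 and 195. Of 5 pumps that move calcium into the endoplasmic reticulum or Golgi, 3 were at 1 TPM. Atp2a2, the widely expressed pump of the endoplasmic reticulum, had 59.8 and 55.1 TPM, and Atp2c1, a pump of the Golgi, 21.5 and 31.4. Of 9 sodium-calcium exchanger genes, 4 were at 1 TPM. Among the 7 that averaged 10 counts or more, 2 were past 1.2-fold in each direction. Of those, only Slc24a3 was at 1 TPM in both libraries. Slc8b1, the mitochondrial exchanger, had 9.31 and 16.1 TPM on 590 and 609 counts, so its TPM differed and its scaled counts were 1.02-fold apart, with an interval of 0.910 to 1.15. Slc24a3, a potassium-dependent exchanger, had 6.43 and 9.09 TPM. Atp2a2 alone was thus above the 4 plasma membrane calcium pumps together, and each exchanger was below Atp2b1 in mean TPM, though Slc8b1 was above it in animal 2.

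**Figure D5:**
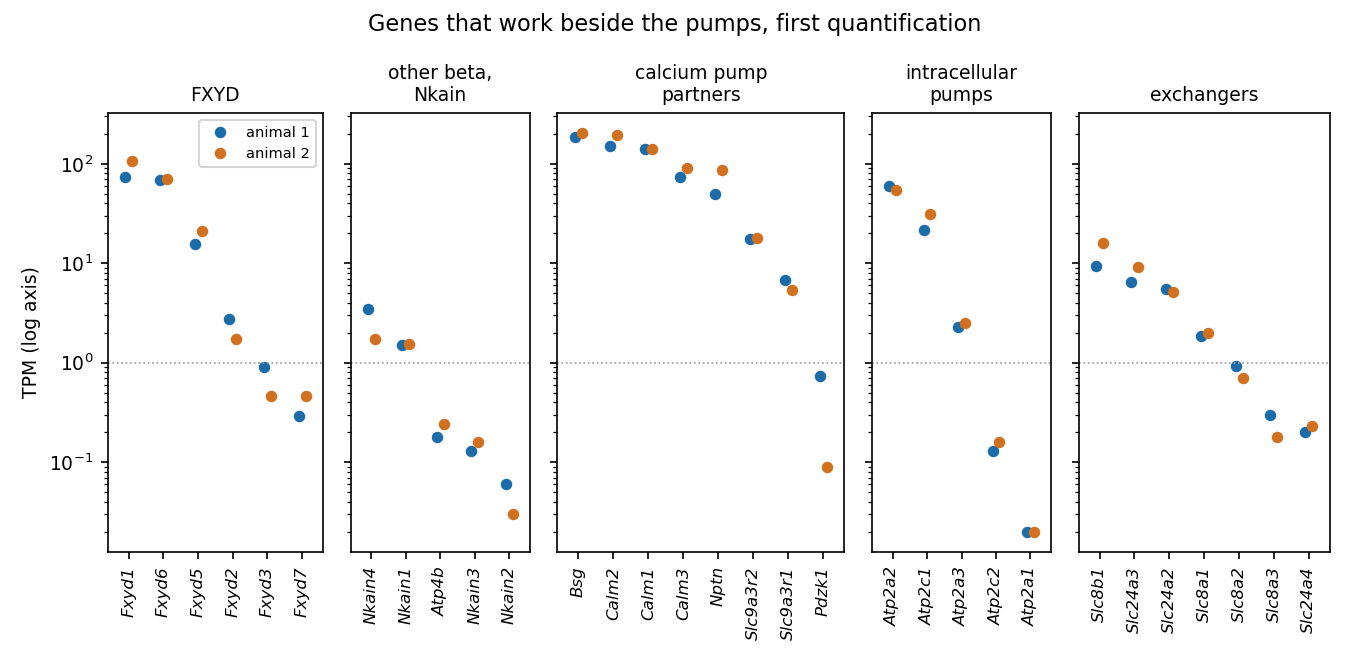
TPM of the listed genes on a log axis in animal 1 and animal 2, in 5 lists, without genes at 0 in a library, and with a dotted line at 1 TPM. Fxyd1 and Fxyd6 lead the FXYD list, Bsg the calcium pump partners, at 184 and 204, and Atp2a2 the intracellular pumps, at 59.8 and 55.1.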

How the data were processed

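Total RNA-seq of 2 adrenal libraries was analysed. The authors deposited expected counts per gene and per transcript, estimated counts in the second transcript table, TPM in both, and, per the file headers, each transcript's percent of its gene's TPM. The gene table also holds TPM interval bounds and effective lengths. The deposited file list names mm10 and GENCODE M21, and says that the first tables rest on transcriptome alignments and the second on reads with a transcript index. Column names are those of RSEM and kallisto. Not given in the sources used here are aligner, versions, settings and whether counting used strand. The hybrid's CAST reads were thus counted on mm10 models.

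The labels conflict on whether the animals differ. Their biological replicate numbers were followed, so spread may be partly technical. Counts differed by more than sampling noise, with a chi-square of 77.3 per degree of freedom over 17308 genes.

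Counts were scaled by TMM (edgeR 4.0.16, factors 1.02 and 0.981). Ratios used a prior of 0.5 counts, and exact Clopper-Pearson intervals at 95%. The steps were tested on simulated data with 200 genes changed. Alternatives used DESeq2 1.42.0 size factors, spike-in totals, total counts, TPM and the second table. All 7 genes are named, with the 2 most abundant of each list and any at 1 TPM past 1.5-fold, and transcripts with at least 10% of TPM in both libraries of either table. Others were named after their values were seen. Members and lists were chosen with earlier results of these data known.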

Additional observations from a re-analysis of the deposited data

How the results depend on the processing

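No paired analysis was possible because the labels give 1 group. With TPM in place of scaled counts, 1 of the 7 genes was past 1.2-fold, Atp1b2, against 3. By scaled counts 0 of the 7 were past 1.5-fold. With the spike-in totals, 2 genes were higher in animal 1, Atp1b1 and Atp2b2, against 4. With total counts and with the second quantification 5 were, and with TPM over nuclear protein-coding genes 6, where the 3 past 1.2-fold were Atp1b2, Atp2b1 and Atp2b2, with Atp1b1 at -0.17. The spike-in totals put the median log2 ratio of all genes at 0.19 and TPM at 0.11, against -0.02 with TMM. Of 49 values of the log2 ratio, over 7 genes and 7 alternatives, 37 stayed within the counting interval, 12 moved outside it and 0 of those past 1.2-fold changed sign. Atp1b1 was at -0.49 on the log2 scale with TMM, -0.29 with the spike-in totals and -0.0013 with TPM. Detection at 0.5 TPM gave 7 genes and at 5 TPM 6. The mean insert share of Atp2b3 at splice site C was 94.9% by counts and 82.2% in the second quantification, against 94.1%, alternatives chosen after seeing the data. With 1 library per animal, depth limits the lowest gene, Atp2b2, most.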

Other observations

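Among the listed genes that act beside the pumps, 4 more were chosen after their values were seen. Pdzk1, a PDZ scaffold protein known from the kidney brush border, had 43 counts in animal 1 and 6 in animal 2, 6.77-fold higher in animal 1 by scaled counts, with a counting interval of 3.07 to 20.8. Fxyd2, the gamma subunit known from kidney tubules, had 52 and 35 counts, 1.49-fold higher in animal 1, with an interval of 0.960 to 2.38 that includes 1. Slc8a3, a sodium-calcium exchanger known from brain and muscle, had 51 and 27 counts, 1.89-fold higher in animal 1, with an interval of 1.18 to 3.17. Nptn, neuroplastin, a subunit of the calcium pumps, had 50.0 and 85.7 TPM on 2393 and 2817 counts, and its scaled counts were 1.16-fold higher in animal 2, with an interval of 1.10 to 1.23. The summed kidney tubule markers, at 20.5 and 0.5 TPM, were higher in animal 1 as well, and their part in the Pdzk1 and Fxyd2 values was not tested.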
